A study of Caenorhabditis elegans with 36 samples.

Results

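The miR-51 to miR-56 family of *C. elegans* was followed through the end of larval development. Its members were all rows of the deposited tables whose name without the arm suffix is miR-51, miR-52, miR-53, miR-54, miR-55 or miR-56, which gave 12 mature strands from 6 hairpins among the 437 mature miRNAs listed. Small RNAs had been sequenced from whole animals of 2 strains, the wild type N2 (WT) and HW3527, which carries ebax-1(tm2321). L1 larvae of both strains were synchronized, plated and held at 25 °C without further treatment, and 1 library was made per strain and hour from 25 to 42 h after plating, so that each strain had 18 libraries and no hour had a second library. This interval runs from the late L3 stage into young adulthood. The labels name no separate cultures, and p-values therefore measure the scatter of single libraries around a fitted curve. ebax-1 encodes the worm ortholog of mammalian ZSWIM8, a ubiquitin ligase adaptor required for target-directed miRNA degradation, and tm2321 is a single allele in a single strain. The study placed the mutant 3 h behind WT from vulva morphology, and strain comparisons here pair WT at 25 to 39 h with the mutant at 28 to 42 h, 15 aligned hours and 30 libraries.

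A miRNA is cut from a hairpin as a duplex. Usually the guide strand stays in Argonaute while the passenger strand is discarded, so passenger levels follow production more closely than guide levels. A miRNA's seed, the bases near its 5′ end, selects its targets, and guides with the same seed form a family that can act on shared targets. The miR-51 family is known as the nematode relatives of the miR-99/100 family. It is broadly expressed, and worms without any member die as embryos, with defects that include a pharynx that does not attach, while single members can be lost with little effect.

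The 6 hairpins lie at 3 places of the genome (coordinates from WBcel235). The mir-51 hairpin spans chromosome IV 11026013 to 11026112 and mir-53 spans IV 11027593 to 11027691, both on the minus strand, 1480 bp apart and outside any other annotated gene. The mir-52 hairpin lies alone at IV 14034008 to 14034107 on the plus strand, opposite an exon of an annotated noncoding RNA gene. The other three form a cluster of 404 bp on the minus strand of chromosome X: mir-54 at 13144996 to 13145094, mir-55 at 13144827 to 13144924 and mir-56 at 13144691 to 13144787. That cluster sits in an intron of the protein-coding gene F09A5.3, which is on the opposite strand, and mir-55 also lies opposite an annotated hairpin named mir-55b. Reads had been counted only in the orientation of the annotated strand. Reads that matched several positions had been kept, so strands of this family that are nearly alike in sequence may share some reads, and the split between them is uncertain to that extent.

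The guide strand was taken as the strand with the higher mean over the 36 libraries. For mir-51, mir-52 and mir-53 it was the 5p strand, and for mir-54, mir-55 and mir-56 the 3p strand, so the guides from chromosomes IV and X come from opposite arms. Levels are given as CPM, the counts of each library scaled to a total of 1000000. In WT miR-52-5p was the most abundant member, with 3404 CPM in its lowest library (39 h), a median of 4876 and 8569 in its highest (32 h). Its mutant levels ran from 3189 at 42 h through a median of 4248 to 8095 at 29 h, overlapping WT over most of their range. miR-54-3p came next, with a WT median of 1754 CPM and a range of 1477 to 7972, and a mutant median of 1642 and a range of 1128 to 2809. miR-55-3p had medians of 1053 CPM in WT and 1012 in the mutant.

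The other three guides were lower. miR-51-5p had a median of 643 CPM in WT (484 to 1162) and 569 in the mutant (412 to 918). miR-56-3p had medians of 515 and 440 CPM, and miR-53-5p of 408 and 341 CPM. By mean level over both strains the guides ranked from 31 for miR-52-5p to 85 for miR-53-5p among the 437 miRNAs. The order of neighbours held in all 18 mutant libraries. In WT each of 2 breaks occurred in 1 of 18 libraries: at 33 h miR-54-3p exceeded miR-52-5p, and in 1 library miR-56-3p fell below miR-53-5p. The closest neighbours were miR-51-5p and miR-56-3p, whose log2 ratio averaged 0.37 ± 0.18 (SD, n = 18) in WT and came as low as 0.0099 in one mutant library.

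The passengers were present at 5.18 to 477 CPM on average. miR-54-5p, with a WT median of 420 CPM, was as abundant as the miR-53-5p guide. miR-53-3p was the rarest member, with 7 to 43 counts per WT library and 6 to 98 per mutant library. Reads carried no molecular identifiers, so counting intervals cover counting error only. All 12 strands together made up 0.763% to 1.97% of counts in WT, with 95% binomial intervals (Wilson) of at most ± 0.0153 percentage points, and 0.702% to 1.52% in the mutant. miR-52-5p alone supplied 46.6% ± 3.34 (SD, n = 18) of the family in WT and 47.2% ± 3.05 in the mutant. miR-54-3p supplied 19.5% ± 5.47 and 17.7% ± 2.69, and the 6 passengers together 8.66% ± 1.86 and 9.87% ± 1.92. The strain means of these shares differed by less than the SD of single hours. Hours were taken as sampled, and a strain difference in the shares was not tested.

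**Figure D1:**
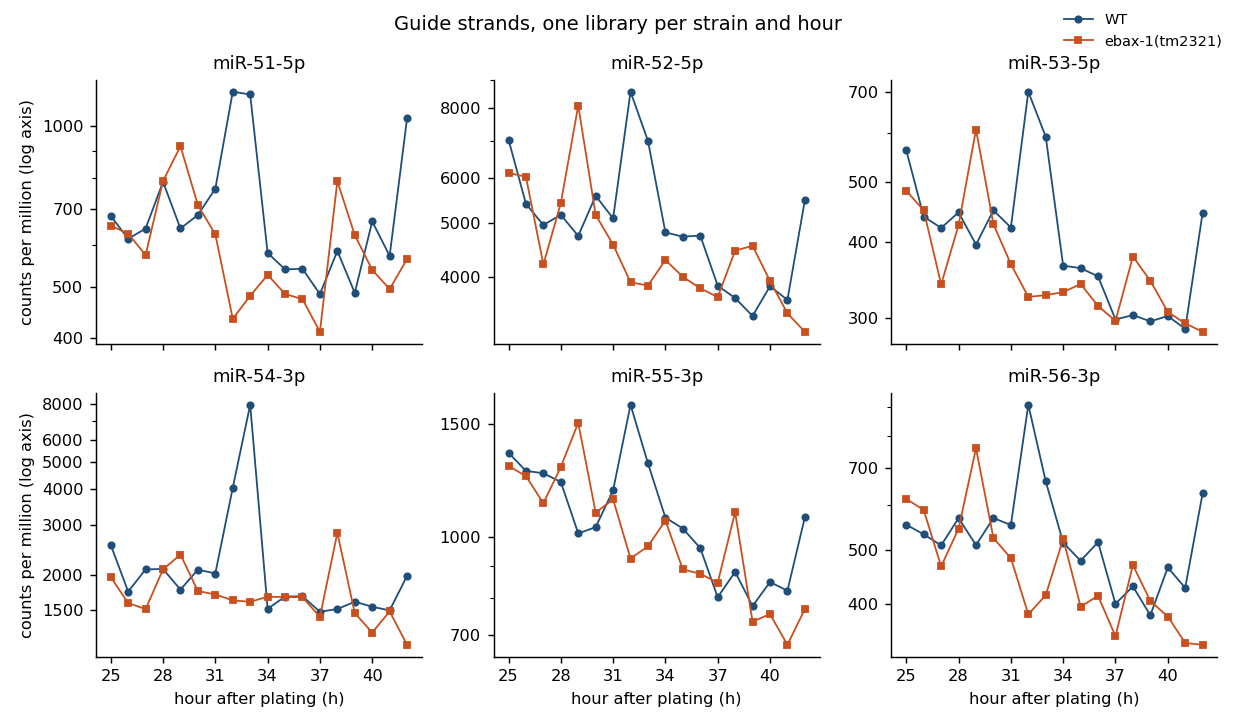
Level of each of the 6 guide strands (CPM, log axis) against hour after plating, 1 point per library, WT as blue circles and ebax-1(tm2321) as orange squares. All 6 guides stand high together at 32 and 33 h in WT and at 29 h in the mutant, and miR-54-3p reaches 7972 CPM at 33 h in WT.

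Before trends were read, single libraries were compared with the hours around them, because all 6 guides rose and fell together from library to library. In 5 libraries every guide lay more than 0.15 (log2) above the median of the 4 neighbouring hours of its strain, a limit chosen after the values were seen: WT at 32, 33 and 42 h and the mutant at 29 and 38 h. At 32 h in WT the 6 guides exceeded their neighbours by 0.37 to 0.83, and at 42 h by 0.37 to 0.76. In the same libraries the median passenger differed from its neighbours by 0.11 and -0.06. At 29 h in the mutant the guides stood 0.37 to 0.72 higher and the median passenger -0.09. At 33 h in WT and 38 h in the mutant the lowest guide was 0.16 and 0.19 higher and the median passenger -0.15 and -0.09. Guides were thus high together in these libraries, which were chosen for that, while the median passenger was not.

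miR-54-3p gave the largest excursion. It had 25261 counts at 33 h in WT, 7972 CPM, against 4052 CPM at 32 h and at most 2547 CPM from 25 to 30 h. This was 2.06 (log2) above the neighbouring hours, the highest deviation of the 244 miRNAs kept by the count filter in that library. At 38 h in the mutant it was again the highest of 244, at 0.91 above its neighbours. Only 9 of the 244 miRNAs passed the same limit in all 5 libraries. The 6 family guides are among them because the libraries were chosen by these guides. The others were miR-2-3p, lin-4-5p and miR-789-3p. Whether these excursions come from the animals, the RNA preparation or the libraries was not tested. Counts of called strands and ratios below are also given without these 5 libraries where that moves them.

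**Figure D2:**
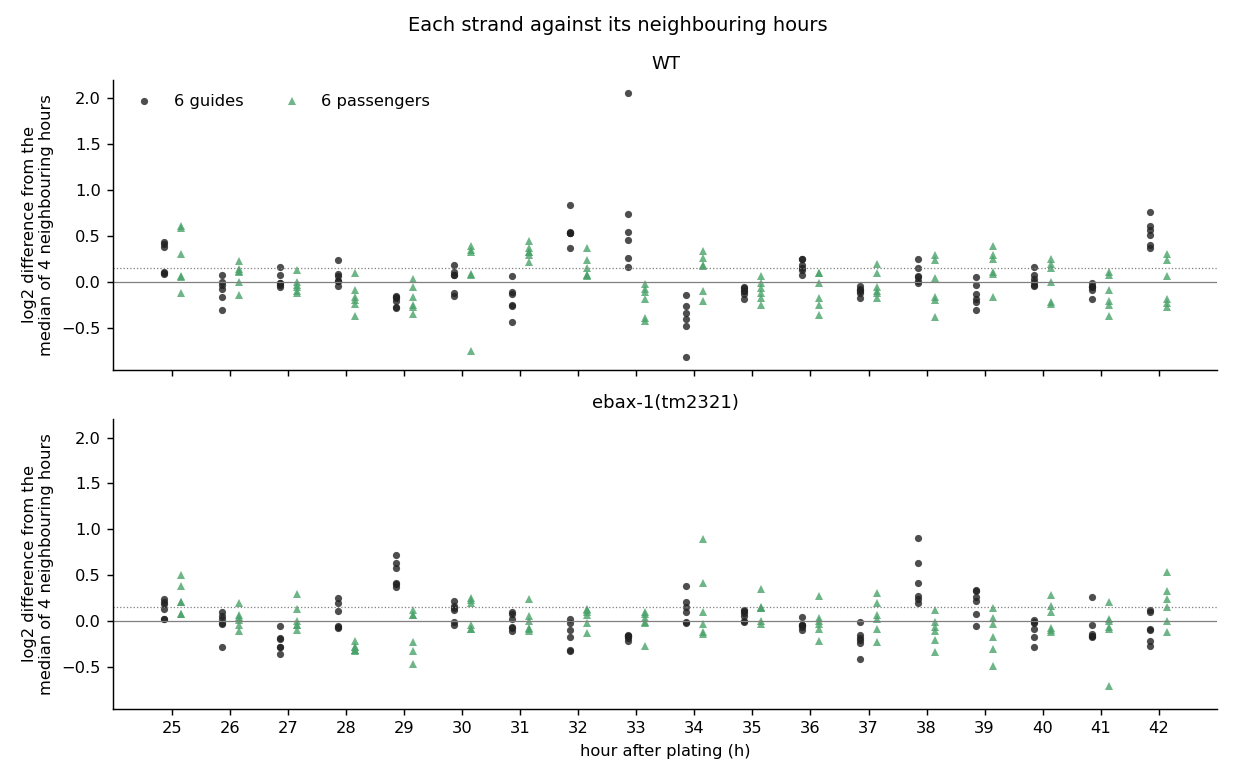
Log2 difference of each family strand from the median of the 4 neighbouring hours of the same strain, by library, guides as black circles and passengers as green triangles; the dotted line marks 0.15. In WT at 32, 33 and 42 h and in the mutant at 29 and 38 h all guides lie above the dotted line, and in none of these libraries does the median passenger.

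Across all 36 libraries, centred within strain, levels of the guides (log2 of TMM-scaled counts) moved together, with Pearson's r of 0.54 to 0.97 and a median of 0.76 over the 15 pairs. The highest value was that of miR-52-5p and miR-53-5p, which come from different loci. A guide and its own passenger gave a median r of only 0.25 (-0.08 to 0.36 over 6 hairpins), although both are cut from the same precursor. These values share libraries and their scaling, and are a description. The r values here include the 5 libraries described above, where all guides, lin-4-5p and miR-2-3p were high. No r was computed without them. Outside the family, the miRNAs most like the summed guides were lin-4-5p (r = 0.88), a regulator of larval timing, miR-2-3p (0.81) and miR-48-3p (0.76), each over 36 libraries. lin-4-5p was also the closest match of miR-52-5p, miR-53-5p and miR-56-3p. The closest matches of the other guides were miR-49-3p (0.70) for miR-51-5p, miR-48-3p (0.91) for miR-54-3p and miR-2-3p (0.78) for miR-55-3p.

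The first question was which family strands rose or fell steadily with time in WT. miR-52-3p, the passenger of the most abundant guide, fell most. It had 272 CPM at 25 h, 154 at 28 h and 266 at 31 h, then 171 at 34 h, 101 at 35 h, 54.5 at 36 h, 42.7 at 37 h and 26.3 at 42 h. All 6 libraries from 37 to 42 h (26.3 to 42.7 CPM) lay below all 6 from 25 to 30 h (154 to 272 CPM). The fitted slope was -0.20 ± 0.03 (SE) log2 per hour, a 10.5-fold fall over 17 h (edgeR adjusted p = 5.74e-06), and ranked 5 of 218 from the most negative. A straight line averages over a level that first held and then dropped: the level crossed 50% of its mean over 25 to 30 h between 34 and 35 h. miR-67-5p followed it most closely among other miRNAs (r = 0.95 over 36 libraries).

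miR-54-5p, the passenger of the second guide, also fell in WT. It rose from 510 CPM at 25 h to 730 at 30 h, then fell to 463 at 33 h, 313 at 37 h and 228 at 42 h. Its slope was -0.065 ± 0.014 log2 per hour (adjusted p = 0.000483), a 2.14-fold fall over 17 h, and its early and late libraries did not overlap (474 to 730 against 228 to 334 CPM). miR-51-3p moved the other way. It had 87.2 CPM at 25 h, 43.5 at 30 h, 109 at 37 h and 147 at 42 h, and gained 0.073 ± 0.013 log2 per hour (adjusted p = 0.000106), a 2.36-fold rise over 17 h. Its early (43.5 to 88.2 CPM) and late (88.6 to 147 CPM) libraries only just did not overlap. The closest other miRNAs were miR-230-3p for miR-54-5p (r = 0.90) and miR-66-5p for miR-51-3p (r = 0.87).

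In all, 11 of the 12 strands passed the count filter in WT, 1 rose and 2 fell at an adjusted p of 0.01. Among all 218 miRNAs tested, 25.7% rose and 33.5% fell. The 3 called strands were passengers, and none of the 6 guides was called, with slopes from -0.019 to 0.014 log2 per hour. Without the 5 libraries described above, 6 strands fell: miR-52-3p and miR-54-5p together with miR-53-5p (-0.036), miR-52-5p (-0.032), miR-55-3p (-0.030) and miR-56-5p (-0.041). In that fit 82 of all 216 miRNAs tested fell. The libraries left out were chosen for their high guides and include WT at 42 h, the last hour. Guide slopes without them therefore depend on that choice and give no independent support for a fall. Scaled to library totals alone, without TMM, 4 of 11 strands fell in WT, miR-55-3p and miR-56-5p being added, against 44.5% of all miRNAs tested, and the median slope of all miRNAs moved from -0.18 to -0.51 (log2 over 17 h). The 6 guides together made up 1.04% ± 0.12 (SD, n = 6) of all WT counts at 25 to 30 h and 0.786% ± 0.138 at 37 to 42 h, on this scale of library totals on which the median miRNA also fell.

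miR-53-3p did not pass the filter over the 18 WT libraries, so its WT trend was not tested. It had 5.51 to 11.3 CPM from 25 to 30 h and 2.02 to 3.59 CPM from 37 to 42 h, with no overlap. These late values rest on 7 to 19 counts per library.

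**Figure D3:**
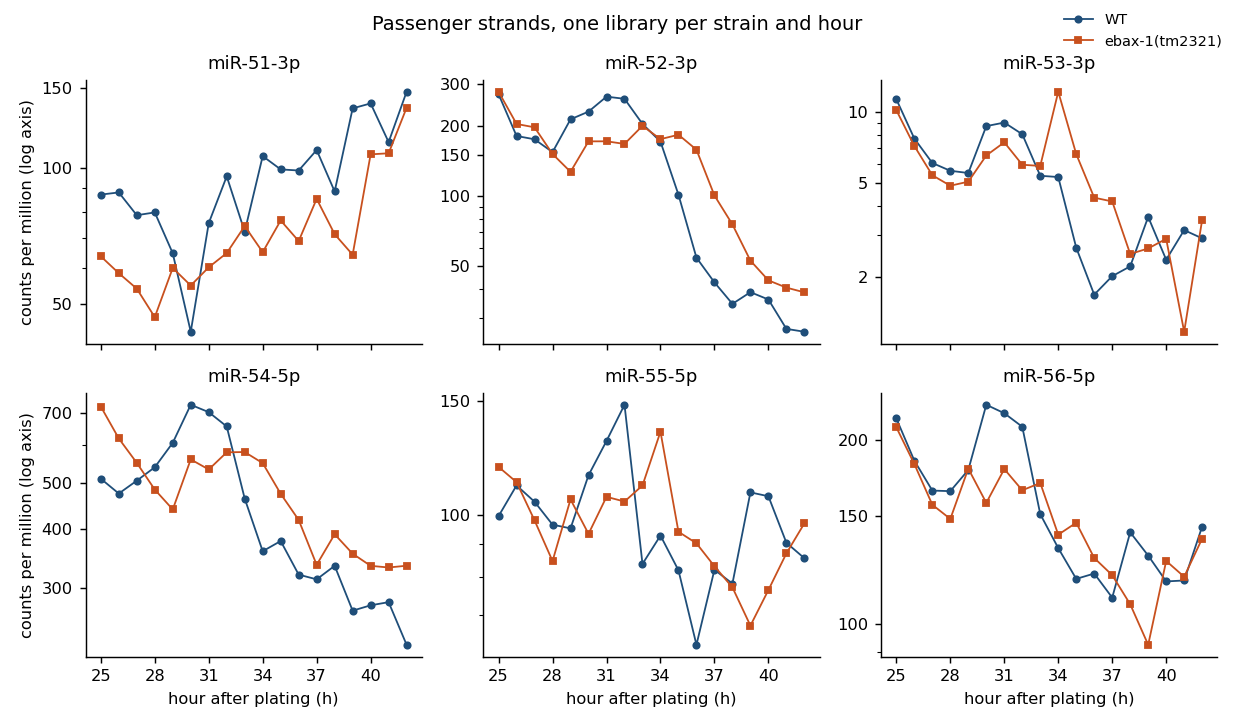
Level of each of the 6 passenger strands (CPM, log axis) against hour after plating, 1 point per library, WT as blue circles and ebax-1(tm2321) as orange squares. miR-52-3p falls from 266 CPM at 31 h to 54.5 at 36 h in WT and, later, from 158 at 36 h to 52.9 at 39 h in the mutant, while miR-51-3p ends higher than it began in both strains.

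In the mutant the same passengers changed in the same directions. miR-52-3p had 279 CPM at 25 h, 127 at 29 h, 183 at 35 h, 158 at 36 h, 100 at 37 h, 75.5 at 38 h, 52.9 at 39 h and 38.7 at 42 h. Its slope was -0.12 ± 0.02 log2 per hour, a 3.94-fold fall over 17 h (adjusted p = 0.000364). miR-54-5p went from 724 CPM at 25 h to 334 at 42 h (-0.035 ± 0.010 per hour, adjusted p = 0.00336). miR-51-3p climbed from 63.8 to 135 CPM (0.083 ± 0.010 per hour, adjusted p = 8.72e-07). One guide, miR-55-3p, fell as well, by 1.40-fold over 17 h (slope -0.029 ± 0.008, adjusted p = 0.00397), with late libraries at 677 to 1092 CPM against 1090 to 1507 early, which overlap in 1 value each.

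All 12 strands were tested in the mutant: 1 rose and 3 fell, against 32.0% and 25.2% of all 222 miRNAs tested. The number that fell rested on single libraries. Leaving out the 42 h library left only miR-52-3p, with miR-54-5p and miR-55-3p at adjusted p of 0.0112 and 0.0114. miR-55-3p was also lost without the 39 h library, and 5 strands fell without the 26 h or the 40 h library. Without the 5 libraries standing apart, 7 strands fell: miR-52-3p, miR-54-5p, miR-55-3p, miR-52-5p (-0.029), miR-53-5p (-0.024), miR-56-3p (-0.032) and miR-56-5p (-0.029), where 72 of all 216 miRNAs tested fell. As in WT, the guide slopes of that fit depend on leaving out libraries chosen for high guides. Scaled to library totals, 8 of 12 strands fell in the mutant, against 43.7% of all 222 miRNAs. miR-51-3p and miR-52-3p were called, in the same direction as before, in all 18 such fits of each strain that left out 1 library.

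Changes that are not a straight line were tested with a spline of time with 6 components. In WT 6 of 11 strands changed, against 72.5% of all miRNAs: miR-52-3p (adjusted p = 2.71e-10), miR-54-5p (1.22e-06), miR-51-3p, miR-56-5p, and the guides miR-52-5p (0.00271) and miR-53-5p (0.00740). In the mutant 4 of 12 changed, against 59.0% of all miRNAs, and all were passengers: miR-52-3p (1.61e-10), miR-51-3p (8.09e-07), miR-54-5p (0.000697) and miR-53-3p (0.000882). Scaled to library totals, 10 of 12 strands changed in the mutant, against 66.2% of all miRNAs in that fit. Without the 5 libraries standing apart, 7 of 11 strands changed in WT and 6 of 12 in the mutant. The shares of all miRNAs were then 69.9% and 59.3%.

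**Figure D4:**
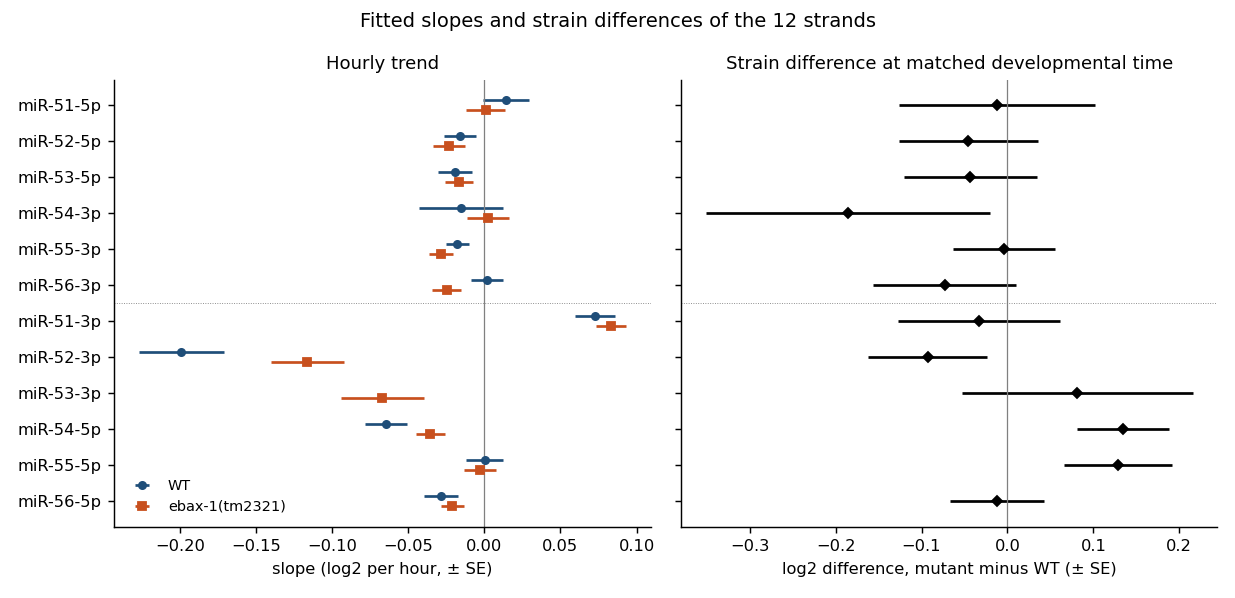
Left, fitted slope (log2 per hour, ± SE) of each family strand in WT (blue circles) and ebax-1(tm2321) (orange squares); right, fitted log2 difference between strains (mutant minus WT, with SE) in 30 aligned libraries; guides above the dotted line, passengers below. miR-52-3p and miR-54-5p slope down and miR-51-3p slopes up in both strains, miR-53-3p has no WT value, and no strain difference passed the threshold.

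Guides and passengers were then compared directly, as the ratio of guide to passenger counts within each library. For miR-52 the ratio was lowest in WT at 31 h, with 19.1 guide reads per passenger read, and highest at 42 h, with 209. From 25 to 30 h it ranged from 22.3 to 33.5 and from 37 to 42 h from 87.8 to 209, without overlap. In a limma fit to log2 ratios of TMM-scaled counts plus 8, it rose by 0.17 ± 0.02 log2 per hour (adjusted p = 2.54e-06), ranking 5 of 86 hairpins. In the mutant it ran from 19.3 at 33 h to 90.3 at 40 h and rose by 0.097 ± 0.026 per hour (adjusted p = 0.00469). That call was lost, with slopes of 0.087 or more, in 6 of the 18 fits that left out 1 library (25, 27, 39, 40, 41 or 42 h). At 29 h, one of the 5 libraries standing apart, the mutant ratio was 63.8 against 21.4 to 35.8 in the other libraries from 25 to 30 h, and without the 5 libraries the slope was 0.11.

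The miR-51 ratio went the other way. In the mutant it fell from between 10.2 and 16.9 at 25 to 30 h to between 4.16 and 11.1 at 37 to 42 h (slope -0.081 ± 0.018 log2 per hour, adjusted p = 0.00139). In WT the slope was -0.064 ± 0.022 and missed the threshold (adjusted p = 0.0352). It passed without the 5 libraries (-0.073, adjusted p = 0.00782), which were chosen for high guides. For miR-53 the WT ratio rose by 0.055 ± 0.015 per hour (adjusted p = 0.00835). It was 49.8 to 79.2 early and 82.5 to 153 late. Its passenger is near the limit of detection, and the call was lost in 10 of 18 fits that left out 1 library (25, 26, 27, 29, 30, 35, 37, 38, 40 or 42 h), without the 5 libraries (adjusted p = 0.0254) and with 32 in place of 8 added to the counts (0.109).

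In total 2 of 6 ratios rose and 0 fell in WT, against 16.3% and 4.65% of 86 hairpins, and in the mutant 1 rose and 1 fell, against 16.3% and 11.6%. An unadjusted p under 0.05 in limma was also found in WT for the miR-51 ratio (negative slope) and the miR-56 ratio (positive, adjusted p = 0.0627). In the mutant it was also found for the miR-54 ratio (positive, adjusted p = 0.112) and the miR-55 ratio (negative, adjusted p = 0.114). Many of the other hairpins passed this looser limit as well. Their share was not computed, so nothing about the family is read from passing it. The ratio of guide to passenger had WT medians of 3.54 for miR-56, 4.62 for miR-54, 7.02 for miR-51, 11.3 for miR-55, 34.0 for miR-52 and 84.9 for miR-53. Hairpins of chromosomes IV and X thus overlapped in this order.

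**Figure D5:**
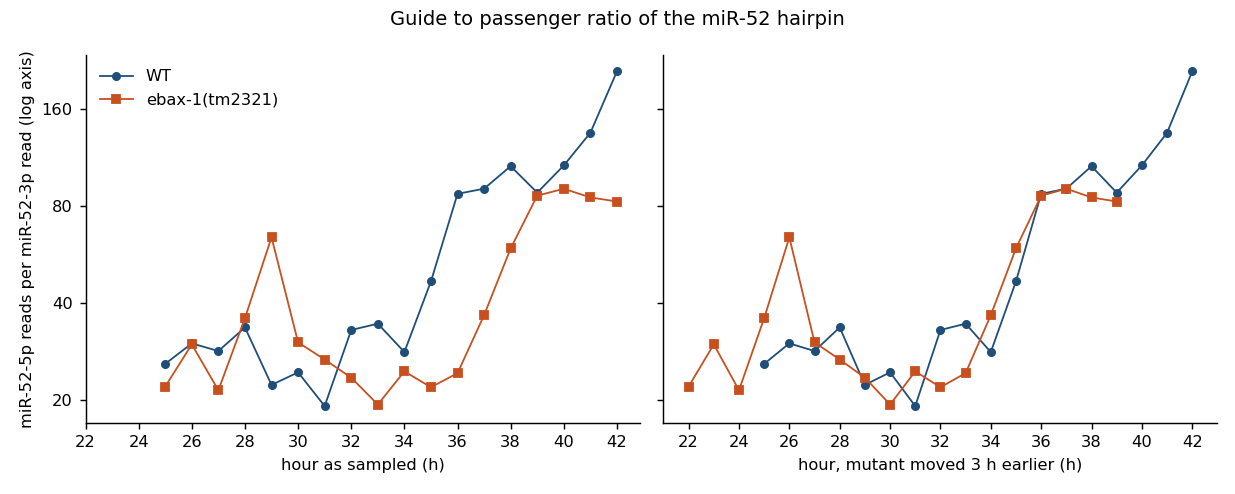
Reads of miR-52-5p per read of miR-52-3p (log axis) in each library, WT as blue circles and ebax-1(tm2321) as orange squares, against the hour as sampled (left) and with the mutant moved 3 h earlier (right). The WT ratio climbs from 28.1 at 34 h to 87.0 at 36 h, the mutant ratio from 24.2 at 36 h to 85.9 at 39 h, and on the right the late climbs lie together, while the mutant library sampled at 29 h stands at 63.8.

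The strains were compared at matched developmental time. At the hours as sampled, miR-52-3p was higher in the mutant in 12 of 18 hours, by up to 2.90-fold, and with time moved by 3 h it was higher in 3 of 15. The mutant crossed 50% of its level at 28 to 33 h at 37.7 h, and WT crossed 50% of its own level at 25 to 30 h at 35.0 h. With the 3 h shift its mean difference (mutant minus WT, log2) was -0.09 ± 0.07 (adjusted p = 0.252), and with no shift 0.43 (adjusted p = 0.00133). The slopes over aligned time did not differ detectably (difference 0.012 ± 0.052 log2 per hour, adjusted p = 0.987). Both the size and the sign of the strain difference of miR-52-3p thus depend on how the time courses are aligned.

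Over the family 0 of 12 strands differed in mean level between strains in the edgeR fit, against 24.1% of 241 miRNAs higher and 26.6% lower in the mutant. At an unadjusted p under 0.05 only miR-54-5p differed, at 0.13 ± 0.05 (adjusted p = 0.0315). Estimates of the other strands ran from -0.19 ± 0.17 for miR-54-3p to 0.13 ± 0.06 for miR-55-5p, each with an adjusted p above that of miR-54-5p. miR-54-5p was close to the threshold: it was called higher in the mutant in 25 of the 30 fits that left out 1 library (all but WT 29 and 33 h and mutant 32, 38 and 42 h), and miR-55-5p in 6 of them. The median of all miRNAs also moved up in these fits. It ran from -0.031 to 0.030, against -0.034 with all libraries. DESeq2 called 1 strand, miR-54-5p, at 0.17.

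The scaling mattered here. With library totals in place of TMM the median of all miRNAs moved from -0.03 to -0.23, miR-54-5p turned to -0.06, and 4 strands were called lower in the mutant: miR-52-3p (-0.29), miR-56-3p (-0.27), miR-56-5p (-0.21) and miR-55-3p (-0.20), beside 116 of 241 miRNAs (48.1%). These 4 strands had negative estimates under both scalings, and relative to the median of all miRNAs with library totals they lay at -0.06 to 0.03. The estimates of miR-54-5p, miR-55-5p and miR-53-3p, not called under either scaling, turned from positive to negative.

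Tested for any strain difference at any time, miR-51-5p was the 1 of 12 strands called (edgeR joint test, adjusted p = 0.00621), against 45.2% of all miRNAs, and without the 5 libraries standing apart none was. It was 1162 and 1148 CPM at 32 and 33 h in WT, 2 of those libraries. For a strain difference that changes with time 0 of 12 were called (7.47% of all miRNAs), miR-51-5p having an adjusted p of 0.0165. An unadjusted p under 0.05 was found for 6 strands, whose adjusted p over all 241 miRNAs ran from 0.0165 to 0.127. Many other miRNAs passed this looser limit as well. Their share was not computed, so nothing about the family is read from that count. DESeq2 called 1 strand, and 13.7% of all miRNAs. Slopes over aligned time differed for 0 of 12 strands (1.66% of all miRNAs sloped more upward in the mutant and 0% more downward), and 1 strand, miR-56-3p, had an unadjusted p under 0.05. Of the 6 guide to passenger ratios 0 differed between strains, against 20.9% of hairpins higher and 15.1% lower, and 0 had an unadjusted p under 0.05 in limma. The miR-52 ratio differed by 0.04 ± 0.11 (adjusted p = 0.777).

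In the part of the series that still follows the larval molts, a 7 h rhythm was fitted over 11 libraries per strain, WT at 25 to 35 h and the mutant at 28 to 38 h. In WT 1 of 12 strands was called, miR-56-5p, with an amplitude of 0.30 log2 (edgeR adjusted p = 0.00838), against 13.2% of 219 miRNAs. It had 165 CPM at its lowest from 25 to 30 h and 228 CPM at 30 h. miR-54-5p of the same cluster had an amplitude of 0.37 and just missed the threshold (adjusted p = 0.0101). miR-54-3p had the largest fitted amplitude, 0.58 (adjusted p = 0.139). Its highest levels in this interval were those of the 32 and 33 h libraries, and no amplitude was recorded without them. In the mutant 0 of 12 were called and 0% of all 221 miRNAs. The looser limit of an unadjusted p under 0.05 was passed in WT by 7 of 12 strands, with adjusted p from 0.00838 to 0.0655. Many of the other miRNAs tested passed it as well. Their share was not computed, so nothing about the family is read from that count. In the mutant 1 strand, miR-54-5p, passed this looser limit. The interval holds little more than 1 period, and the WT call was lost without the 32 and 33 h libraries.

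Other miRNA families gave a frame for these values. Of the guides of the miR-58 family, the relatives of insect bantam, 4 of 4 tested rose in WT and 4 of 4 in the mutant, with median slopes of 0.030 and 0.051 log2 per hour. Of the let-7 family guides, which time the larval to adult transition and mark the hypodermal seam among other tissues, 0 of 4 were called in WT and 2 of 4 rose in the mutant. The median slope of the 6 miR-51 family guides was -0.016 in WT and -0.020 in the mutant, against -0.011 and -0.0028 for all miRNAs tested. The miR-35 family, which is made in embryos and germline and whose decay requires ebax-1, had 7 of 7 tested members higher in the mutant, by a median of 2.38 (log2).

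Because whole animals were sequenced, fewer cells of a type and less miRNA per cell cannot be told apart. The summed level of the embryo and germline list (9 miRNAs, of which only miR-41-3p was at 0 in any library, in 2) ran from 1134 to 32880 CPM in WT and from 9820 to 24809 CPM in the mutant. In WT 5 of its 8 tested members rose and 2 fell, and in the mutant 0 rose and 3 fell. All 8 were higher in the mutant (median 2.42 log2), against 24.1% of 241 miRNAs. Most of the list is the miR-35 family, whose decay requires ebax-1. Cell content and decay therefore cannot be told apart in the strain difference of this sum. Muscle miR-1-3p stood at 65480 to 81156 CPM at 25 to 30 h and 49723 to 60784 CPM at 37 to 42 h in WT. With TMM its WT slope was -0.011 log2 per hour, not called, against a median of -0.011 for all miRNAs. In the mutant it was called as rising (0.016). In WT the neuronal pair lsy-6-3p and miR-124-3p fell from 57.5 to 126 CPM early to 36.8 to 57.0 late. Both were called as falling in WT and 0 of 2 in the mutant. Intestinal miR-60-3p was lower in the mutant by 0.48 (log2). Their part in the family's changes was not tested.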

How the data were processed

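Small RNA libraries (CleanTag kit) came from 36 samples, 18 per strain. According to the methods of the study, the authors trimmed adapters with QuasR, aligned reads with Bowtie to ce10 and counted reads starting within 3 bp of each miRBase 5′ end, in its orientation. Their versions are not stated in the sources read. The values deposited by the authors are raw counts and, in a second table, log2 values: the count divided by the library total, times the mean total, plus 8, and recomputing it differed by at most 0.0005. Library totals were 2832088 to 8060155 counts. Coordinates come from the Ensembl annotation of WBcel235, another build than ce10, and were used only to describe loci. Sequences of the strands were not used here.

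Counts were filtered (filterByExpr, minimum count 10), scaled by TMM and tested with edgeR 4.0.16 quasi-likelihood F-tests, and guide to passenger log2 ratios of TMM-scaled counts plus 8 with limma 3.58.1 (R 4.3.3). The threshold was a Benjamini-Hochberg adjusted p of 0.01 over all features tested. Spline, shift of 3 h and threshold follow the study, which used limma on log2 values; that fit, DESeq2 1.42.0 and others were alternatives. Scripts were tested on simulated counts. All 12 strands were described; other miRNAs were named as the closest match by Pearson's r (3 for the summed guides, 1 per strand), from 3 comparison families and cell type lists, or as the miRNAs above their neighbours in all 5 libraries standing apart, the last chosen after values were seen. The members and lists were chosen with earlier results of these data known. Replicate numbers only name libraries.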

Additional observations from a re-analysis of the deposited data

How the results depend on the processing

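The labels give no replicate numbers that pair libraries. With each aligned hour as a block of 2 libraries, 0 strands differed between strains in either direction, with miR-52-3p at -0.092 and miR-54-5p at 0.13 (adjusted p = 0.0321). The trends of miR-51-3p, miR-52-3p and miR-54-5p kept direction and call in both strains under every setting except the 42 h library left out for miR-54-5p in the mutant. Library totals and limma on the deposited log2 values each gave 4 falling strands in WT and 8 in the mutant, 10 strands changing over time in the mutant, 4 strands lower in the mutant and 6 in the joint test; with library totals the shares of all miRNAs were 44.5%, 43.7%, 66.2%, 48.1% and 58.1%. DESeq2 gave 9 strands changing over time in the mutant (70.7% of all miRNAs), 1 higher in the mutant (also with its size factors in edgeR) and 1 in the strain-by-time test. Of all miRNAs 54.4% differed between strains in either direction in both of these fits, and 13.7% were called in the strain-by-time test. The contrast of 37 to 42 h with 25 to 30 h gave 7 falling strands in the mutant, where 61% of all miRNAs were called in either direction. No filter gave 2 strands higher in the mutant, 2 in the joint test and 0 rhythmic in WT. Of all miRNAs 32.9% (either direction), 25.1% and 5.48% were called in these fits. Without the 5 libraries, an alternative chosen after seeing that guides were high in them, 6 strands fell in WT (38% of all miRNAs) and 7 in the mutant (33.3%). In WT 7 strands changed over time (69.9%), and in the mutant 6 (59.3%). In WT 1 ratio rose (14% of hairpins) and 1 fell (8.14%). The joint and WT rhythm tests called 0 strands, against 36.4% and 10.4% of all miRNAs. A pseudocount of 32 left 1 rising WT ratio, where 24.4% of all hairpins were called in either direction. Periods of 6 and 8 h gave 0 and 3 rhythmic strands in WT, against 0.457% and 20.5% of all miRNAs. No linear term gave 0, against 0.457%. No shift gave 2 strands higher in the mutant, 4 in the joint and 3 in the strain-by-time test. The shares of all miRNAs were 26.6%, 65.6% and 31.6%. A shift of 2 h gave 1, 3 and 1, against 53.1% (either direction), 44% and 7.05%. A shift of 4 h and a spline of 4 components each gave 1 in the strain-by-time test, against 17.5% and 6.22%. Among guides alone miR-52-5p was 51.1% in WT and 52.3% in the mutant.

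The strain difference of miR-52-3p changed sign with no filter (0.076), no shift (0.43) and a 2 h shift (0.057), and was called at -0.29 with library totals and -0.28 in limma. That of miR-54-5p was -0.063 with the first and -0.062 with the second. The slope difference of miR-52-3p was -0.031 with a 4 h shift and -0.0015 without the 5 libraries. The difference of the miR-52 ratio was -0.38 with no shift and -0.10 with a 2 h shift. Of the 400 combinations of other strands with settings 68 changed sign, all of strands not called in the first fit. The cause was not tested.

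Leaving out 1 library, falling strands numbered 2 in every WT fit and 1 to 5 in the mutant, rising strands 1 in each strain, strands higher in the mutant 0 to 2 and lower 0. Rising ratios numbered 1 to 2 in WT and 0 to 1 in the mutant, falling ratios 0 in WT and 1 in the mutant. The miR-52-3p strain difference ran from -0.095 to 0.00998. Depth limits miR-53-3p most, with 6 to 98 counts per library.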
